A study of Mus musculus with 6 samples.

Results

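Ferroptosis is a form of cell death in which iron-driven oxidation destroys the unsaturated lipids of cell membranes. Cells hold it off by importing cystine to make glutathione, which the peroxidase Gpx4 uses to repair oxidised lipids, and by keeping ferrous iron out of reach in ferritin or exporting it. Microglia and other macrophages carry an unusually large iron traffic, because they take up iron-loaded debris, recycle haem and withhold iron from microbes.

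The 10 genes described here, 1 or more for each of these steps, were fixed by name: Slc7a11, Gpx4, Acsl4, Tfrc, Fth1, Ftl1, Slc11a1, Slc11a2, Slc40a1 and Hmox1. The choice was made with earlier results of these data known. Each gene matched 1 row of the deposited annotation, and all 10 were among the 13199 genes tested, of 25032 with a read. They were measured by poly(A) RNA sequencing in BV2 cells, an immortalised mouse microglial line. The study compared 3 libraries labelled as overexpressing GFP, the control protein, with 3 labelled as overexpressing TDP43-NLS, which the design text describes as TDP-43 with a mutated nuclear localisation signal. The labels give no promoter, vector, dose or time for either construct and do not say whether libraries came from separate cultures, so p-values measure the spread between these libraries, which may be technical.

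The libraries held 15062131 to 18005592 counted reads, and mitochondrial genes took 1.42% to 1.65% of them. Tardbp, the mouse TDP-43 gene, had fewer reads where the label is TDP43-NLS (log2 fold change -0.26, adjusted p = 0.000291 in edgeR's quasi-likelihood test), and the counts do not tell a construct from the endogenous gene, so every direction below rests on the labels. GFP replicate 2 stood apart from the other GFP libraries in short genes, which had lower values in it, and the calls it changed among the 10 genes, and the list count it moved most, are given without it. The macrophage markers Csf1r (486 CPM in the GFP group), Ptprc (235), Spi1 (324), Cd68 (887) and Trem2 (237) were well expressed, whereas P2ry12 (1.27 and 0.261 CPM in the groups) and Tmem119 (3.79 CPM with TDP43-NLS), which mark microglia in the brain, were near 0. CPM are read counts scaled to library depth after TMM normalisation. The 12 macrophage markers together summed to 2369 to 2474 CPM in the GFP libraries and 2176 to 2223 in the TDP43-NLS libraries. Neuronal, astrocytic, oligodendrocytic, fibroblast and endothelial, and erythroid lists each summed to at most 5.33 CPM in any library, and their part in the results was not tested.

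Iron regulates several of these genes through the iron-responsive element, a stem-loop in the untranslated regions (UTRs) of messenger RNAs to which iron regulatory proteins bind when iron is scarce. Bound near the 5′ end it blocks translation, and bound in the 3′ UTR it stabilises the message. A search of GENCODE M21 transcripts (build GRCm38) for CNNNNNCAGTGN followed by 5 bases that pair with the 5 N's after the first C (G-U pairs allowed) found the element in 4 of the 10 genes. The matched stretches are shown because they sort these genes into those that iron regulatory proteins are known to hold back and those they are known to stabilise. The loop is in capitals, the first 3 stretches lie in 5′ UTRs and the last 4 in the 3′ UTR of Tfrc.
Fth1: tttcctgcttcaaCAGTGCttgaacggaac
Ftl1: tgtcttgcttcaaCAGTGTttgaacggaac
Slc40a1: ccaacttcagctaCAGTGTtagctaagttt
Tfrc: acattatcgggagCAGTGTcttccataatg
Tfrc: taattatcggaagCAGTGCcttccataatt
Tfrc: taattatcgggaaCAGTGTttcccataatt
Tfrc: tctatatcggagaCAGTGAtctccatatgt
Of all genes with an annotated 5′ UTR 0.134% held such a match there, and of genes with a 3′ UTR 0.585%. In the transcripts of the other 6 genes these letters were not found, which says nothing about other forms of the element.

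Cystine import also has a well-known sequence signature. The amino acid response element is the site through which Atf4, the transcription factor of the integrated stress response, acts on its targets. The promoters of 7 of the 10 genes were in the RefSeq table (build GRCm38.p6, 12 windows from 250 bases before to 50 after a start site) and were searched on both strands for TGATGNAA (the amino acid response element), TGACNNNGC (the core of the antioxidant response element) and CACGTG (the E-box). Slc11a2, Slc40a1 and Hmox1 had no entry there, so their promoters were not searched. The only matches were a pair of TGATGNAA matches, on opposite strands, in the promoter of Slc7a11. Sites outside these windows were not searched. Its 120 bases before the start site, chr3:50443614-50443733 on the minus strand, are shown with both matches in capitals.
Slc7a11: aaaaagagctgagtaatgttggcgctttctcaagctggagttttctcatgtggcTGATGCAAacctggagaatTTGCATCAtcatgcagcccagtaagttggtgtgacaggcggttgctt
The matches begin at positions -66 and -47 from the start site. Of 32851 promoters of the same length 3.97% held TGATGNAA at least once and 0.07% held it 2 or more times. TGACNNNGC was held by 12.4% and CACGTG by 7.15%.

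Most of the 10 genes were higher in the TDP43-NLS libraries. Slc7a11 stood nearly 4 times as high, Slc11a2, Fth1, Slc11a1, Slc40a1 and Hmox1 rose 1.49- to 1.90-fold, and Gpx4 and Acsl4 rose 1.24- and 1.28-fold. Tfrc, the receptor for transferrin-bound iron, fell, and Ftl1, the ferritin light chain, was not called. Thus 8 genes rose and 1 fell at an adjusted p under 0.05, where 57.5% of all tested genes were called (29.3% higher and 28.2% lower). The median log2 fold change was 0.58 for the 10 genes and 0.00 for all tested genes, and the median absolute log2 fold change 0.58 against 0.26. Because the genes were chosen with earlier results of these data known, these comparisons describe the set and do not test it. In 9 of the 10 genes the groups did not overlap, as in 63.2% of tested genes (32.0% higher and 31.2% lower). Slc7a11 was the only one called with an absolute log2 fold change of at least 1, as were 9.99% of tested genes. In RNA from whole cultures, fewer cells expressing a gene and less RNA per cell cannot be told apart. Tested against an absolute log2 fold change of 0.5, 4 genes (Slc7a11, Slc11a2, Fth1 and Slc11a1) were called higher, against 9.25% of tested genes, and 0 lower, against 5.64%.

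**Figure D1:**
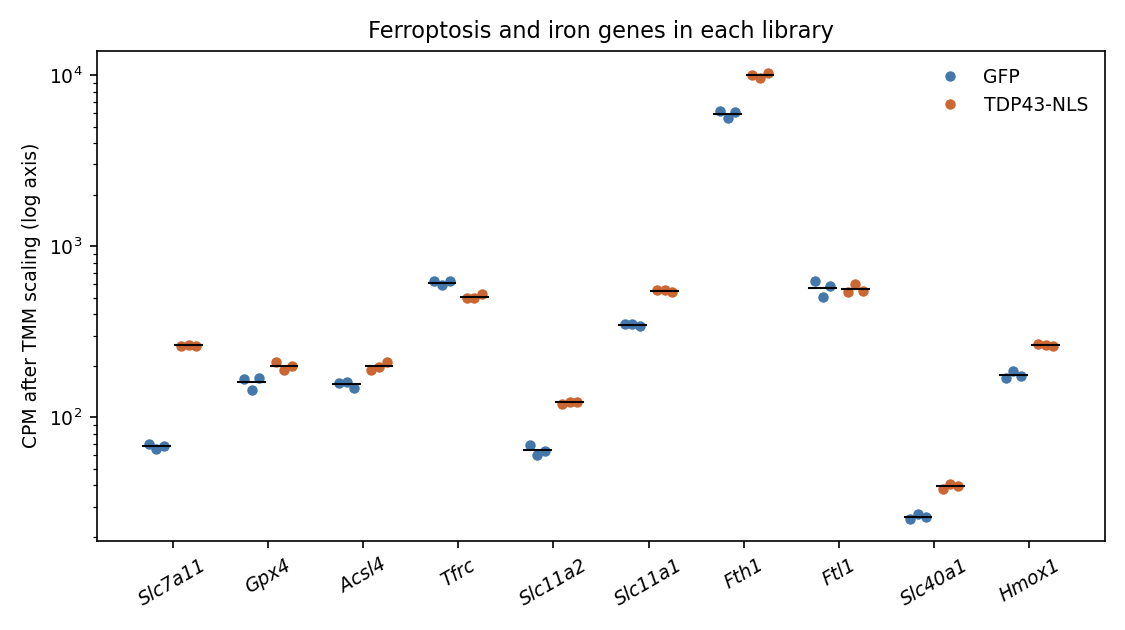
CPM after TMM scaling (log axis) of the 10 genes in each library, blue for GFP and orange for TDP43-NLS; the black lines are group means of 3 libraries. Slc7a11 moves from 67.7 to 262 CPM, the points of the groups overlap only for Ftl1, and Tfrc is the only gene whose TDP43-NLS points all lie lower.

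Slc7a11, the cystine-importing subunit of the cystine/glutamate exchanger (ENSMUSG00000027737, GRCm39 chromosome 3, 49846975 to 50398063, minus strand), was the most changed of the set. Counted reads were 1079, 1105 and 1196 for GFP and 3864, 4689 and 4541 for TDP43-NLS, which is 69.5, 65.4 and 68.2 CPM against 261, 264 and 262 CPM. All TDP43-NLS libraries lay far above all GFP libraries, and the libraries of each group were close together. The means were 67.7 ± 2.09 and 262 ± 1.47 CPM (SD, n = 3 each), a 3.87-fold rise (log2 fold change 1.95, standard error 0.04, edgeR quasi-likelihood adjusted p = 9.17e-13), and 96.6% of tested genes had a smaller absolute change. The rise did not follow its surroundings: of the 20 nearest tested genes 17 had a log2 fold change below 0, with a median of -0.45. The 3 genes of at least 10 CPM whose deviations over the 6 libraries were nearest to those of Slc7a11, among 8950 such genes, were Cfp (properdin, a complement activator, distance 0.12 on the log2 scale), C5ar1 (a complement receptor, 0.14) and Itpr2 (a calcium release channel, 0.15). Cfp went from 64.9 ± 0.923 to 237 ± 3.63 CPM (SD, n = 3 each). The log2 fold changes of Cfp, C5ar1 and Itpr2 were 1.87, 1.99 and 1.95. Where libraries of a group are close together, this distance mostly picks genes of similar fold change, and shared regulation was not tested.

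Gpx4, the selenium-containing peroxidase that repairs oxidised membrane lipids (ENSMUSG00000075706, chromosome 10, 79883000 to 79892273, plus strand), changed much less. It stood at 168, 144 and 169 CPM in the GFP libraries, against 210.0, 189 and 198 CPM with TDP43-NLS. The groups did not overlap, and GFP replicate 2 was the lowest library. The means of 160.3 ± 13.9 and 199 ± 10.4 CPM (SD, n = 3 each) gave a log2 fold change of 0.31 (standard error 0.06, edgeR adjusted p = 0.000665). Without GFP replicate 2 it was 0.24. The ratio of Slc7a11 to Gpx4 FPKM, which are scaled to gene length, went from 0.0512, 0.0561 and 0.0501 to 0.154, 0.172 and 0.164, a 3.11-fold difference. The groups did not overlap in this ratio, but 3 libraries against 3 cannot give an exact permutation p below 0.10 (two-sided p = 0.10, adjusted p = 0.10 over 4 ratios).

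Acsl4, the enzyme that activates arachidonic acid for building the polyunsaturated membrane lipids on which ferroptosis feeds (ENSMUSG00000031278, chromosome X, 141100989 to 141173531, minus strand), rose modestly. It had 158, 160.1 and 148 CPM in the GFP libraries, against 189, 196 and 210.2 CPM with TDP43-NLS. Every TDP43-NLS library lay above every GFP library. With means of 155 ± 6.17 and 199 ± 10.6 CPM (SD, n = 3 each), the log2 fold change was 0.35 (standard error 0.05, edgeR adjusted p = 3.58e-05). A gene that favours lipid peroxidation was thus higher in the same libraries as Slc7a11 and Gpx4, which protect against it.

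Tfrc, the receptor that takes up transferrin-bound iron (ENSMUSG00000022797, chromosome 16, 32427738 to 32451612, plus strand), was the only one of the 10 genes that fell. It had 621, 594 and 622 CPM in the GFP libraries, against 497, 497 and 527 CPM with TDP43-NLS, with no overlap. The means were 612 ± 15.4 and 507 ± 16.9 CPM (SD, n = 3 each). The log2 fold change was -0.27 (standard error 0.04, edgeR adjusted p = 7.78e-05). Genes of chromosome 16 were lower as a group: the median of its 399 tested genes was -0.21, as was that of the 20 tested genes nearest to Tfrc, of which 15 were below 0. Relative to either median Tfrc stood at -0.06, and whether its fall is separate from that of its chromosome was not tested.

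Slc11a2, also called DMT1, moves ferrous iron out of endosomes into the cytosol after the receptor has brought it in (ENSMUSG00000023030, chromosome 15, 100285779 to 100322953, minus strand). It stood at 68.3, 60.4 and 63.5 CPM in the GFP libraries, against 119.5, 123 and 123 CPM with TDP43-NLS. All TDP43-NLS libraries lay far above the GFP libraries. The means of 64.1 ± 3.98 and 122 ± 2.07 CPM (SD, n = 3 each) gave a 1.90-fold rise (log2 fold change 0.93, standard error 0.05, edgeR adjusted p = 5.87e-09). The transporter of endosomal iron and the receptor that feeds it therefore went in opposite directions. The receptor's fall (-0.27) was close to its chromosome's median (-0.21), and whether it is separate was not tested.

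Its relative Slc11a1, or Nramp1, pumps metal ions out of the phagosomes of macrophages and restricts microbes there (ENSMUSG00000026177, chromosome 1, 74414354 to 74425221, plus strand). It had 348, 348 and 342 CPM in the GFP libraries, against 552, 551 and 536 CPM with TDP43-NLS. The GFP libraries were nearly equal and all lay below the TDP43-NLS libraries. The means of 346 ± 3.02 and 546 ± 8.96 CPM (SD, n = 3 each) differed 1.58-fold (log2 fold change 0.66, standard error 0.04, edgeR adjusted p = 8.26e-09). Slc11a1 was the more abundant of the pair throughout: the Slc11a2 to Slc11a1 ratio of FPKM was 0.115, 0.101 and 0.108 in the GFP libraries, against 0.126, 0.130 and 0.134 with TDP43-NLS. The ratio did not overlap between the groups (1.21-fold, exact permutation p = 0.10, adjusted p = 0.10).

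Fth1, the ferritin heavy chain, which oxidises iron for storage in the ferritin shell (ENSMUSG00000024661, chromosome 19, 9957962 to 9962462, plus strand), was among the most abundant messages of these cells. Counted reads were 95962, 94747 and 106803 for GFP, against 148551, 171683 and 178492 with TDP43-NLS, or 0.569% to 0.625% of all reads against 0.953% to 1.01%. By mean FPKM it ranked 7 among all genes with GFP and 3 with TDP43-NLS. In CPM the libraries stood at 6179.5, 5607 and 6090.0 against 10019.9, 9648 and 10279.9, with no overlap. The means of 5959 ± 308 and 9983 ± 318 CPM (SD, n = 3 each) differed 1.68-fold (log2 fold change 0.74, standard error 0.04, edgeR adjusted p = 1.16e-08).

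Ftl1, the ferritin light chain, which helps the iron core to form (ENSMUSG00000050708, chromosome 7, 45107368 to 45109308, minus strand), did not follow the heavy chain. It had 621, 504 and 582 CPM in the GFP libraries, against 541, 600.2 and 545 CPM with TDP43-NLS. The groups overlapped, and the GFP libraries spread more widely than the TDP43-NLS libraries. The log2 fold change was -0.02 with a 95% interval of -0.16 to 0.13 (edgeR adjusted p = 0.842). GFP replicate 2 was the lowest library, and without it the log2 fold change was -0.10 and called lower (adjusted p = 0.0252). Of the 9 other loci named for ferritin chains with a read, Ftl1-ps1 held most, 1899 reads or 3.36% of those in Ftl1. How reads matching several loci were treated is not stated, so both ferritin values are uncertain by an amount that these counts do not limit.

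Ratios within a library compare the ferritin chains with each other and with iron uptake. The Fth1 to Ftl1 ratio of FPKM was 3.84, 4.29 and 4.04 in the GFP libraries, against 7.16, 6.21 and 7.28 with TDP43-NLS, a 1.69-fold difference with no overlap. The Fth1 to Tfrc ratio, iron storage against iron uptake, was 17.8, 16.8 and 17.5 against 35.9, 34.6 and 34.8, a 2.02-fold difference with no overlap. Each ratio reached the smallest exact permutation p that 3 libraries against 3 allow (p = 0.10, adjusted p = 0.10). The fall of Tfrc, part of the Fth1 to Tfrc difference, was close to its chromosome's median (log2 fold change -0.27 against -0.21). Of the 3 genes with an iron-responsive element match in the 5′ UTR, Fth1 and Slc40a1 rose and Ftl1 was not called. That element acts on translation, which these reads do not measure.

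**Figure D2:**
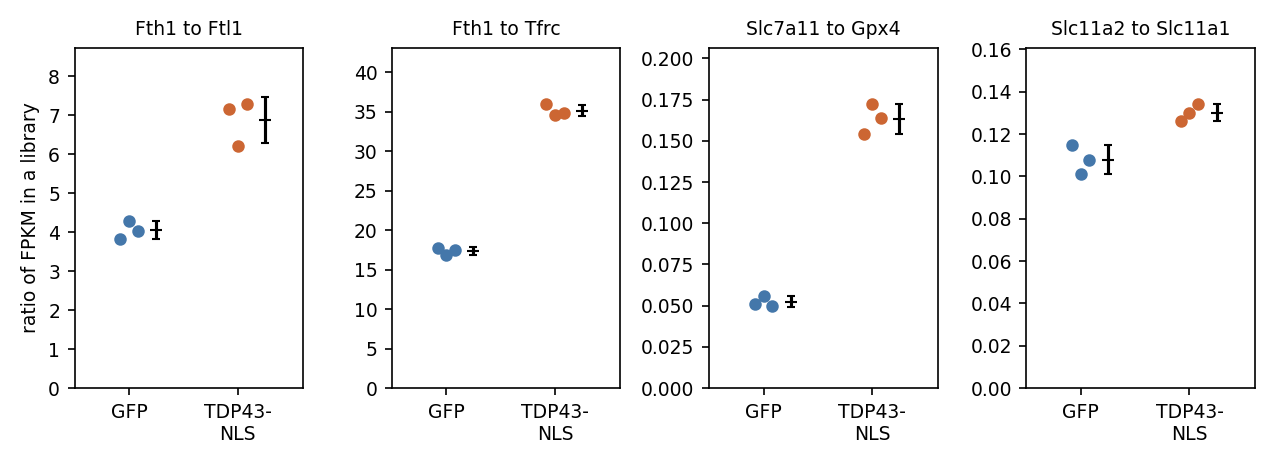
Ratios of FPKM within each library (vertical axis from 0), blue for the 3 GFP and orange for the 3 TDP43-NLS libraries, with the mean and SD beside them in black. In all 4 ratios the groups do not overlap, with the largest fold in Slc7a11 to Gpx4 (3.11-fold) and the smallest in Slc11a2 to Slc11a1 (1.21-fold).

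Slc40a1, or ferroportin, the iron exporter of the cell surface (ENSMUSG00000025993, chromosome 1, 45947228 to 45965683, minus strand), was the least abundant of the 10 genes. It had 25.5, 27.2 and 25.9 CPM in the GFP libraries, against 38.2, 40.7 and 39.4 CPM with TDP43-NLS. The groups were well separated at this low level, which rests on 396 to 724 reads per library. From means of 26.2 and 39.4 CPM, the log2 fold change was 0.59 (standard error 0.06, edgeR adjusted p = 1.55e-06). Tested against a log2 fold change of 0.5 the call ended (adjusted p = 0.127).

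Hmox1, haem oxygenase 1, which frees iron from haem and is a classical target of the antioxidant factor Nrf2 (ENSMUSG00000005413, chromosome 8, 75820249 to 75827217, plus strand), rose by a similar amount. Its levels were 170.2, 186 and 174 CPM in the GFP libraries, against 269, 264 and 259 CPM with TDP43-NLS. Every TDP43-NLS library lay above every GFP library. The means of 177 ± 8.30 and 264 ± 5.06 CPM (SD, n = 3 each) differed 1.49-fold (log2 fold change 0.58, standard error 0.04, edgeR adjusted p = 1.40e-07), and it too lost its call against 0.5 (adjusted p = 0.089).

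**Figure D3:**
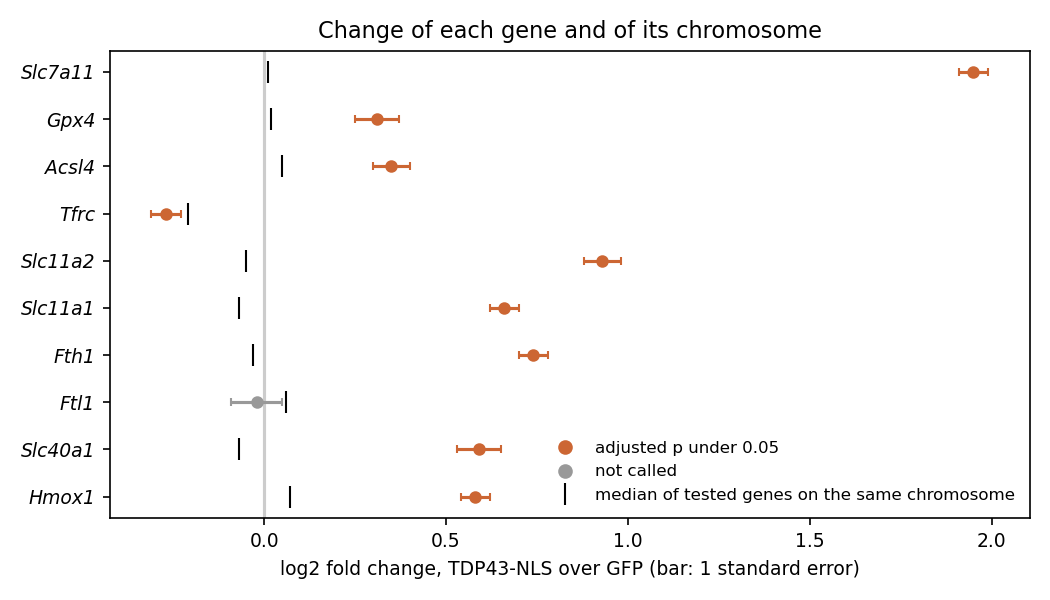
Log2 fold change of TDP43-NLS over GFP for each gene, with 1 standard error as a bar (orange, adjusted p under 0.05; grey, not called), and the median of all tested genes on the same chromosome as a black tick. Tfrc, at -0.27, lies close to its chromosome's median of -0.21, while the 8 genes that rose lie well above theirs.

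Per length of gene model, the order of the genes changed between the groups. In the GFP group the mean FPKM ran from Fth1 (1737) and Ftl1 (429.6) to Hmox1 (102), Tfrc (100.1), Slc11a1 (94.5), Gpx4 (94.1), Acsl4 (29.1), Slc11a2 (10.2), Slc7a11 (4.92) and Slc40a1 (2.95). The library ranges of Hmox1 and Tfrc overlapped, and that of Gpx4 overlapped those of Slc11a1, Tfrc and Hmox1. With TDP43-NLS, Fth1 (2838 FPKM) and Ftl1 (414) remained at the top, Hmox1 (149) and Slc11a1 (145) overlapped, Slc11a1 and Gpx4 (114) stood above Tfrc (80.8), and Slc7a11 (18.6) reached Slc11a2 (18.9), with overlapping ranges. The authors' lengths are those of whole gene models (13922 bases for Slc7a11, 3469 for Fth1), so the order depends on those lengths.

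The other genes of the pathway were taken from 9 lists of 137 genes, of which 113 were tested. Of these 50 rose (44.2%, against 29.3% of all tested genes) and 32 fell (28.3%, against 28.2%), with a median log2 fold change of 0.10. On chromosomes 9 and 16, whose genes were lower as groups (medians -0.31 and -0.21), 7 of 15 tested list genes fell and 3 rose. Elsewhere 25 of 98 fell, and the rest of the 50 that rose lie there. The shares of all tested genes called on these chromosomes were not counted, so the 7 of 15 has no background beside it. Every list gene given below as higher or lower passed edgeR's test, with adjusted p-values of at most 0.00712 (Lyrm4).

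**Figure D4:**
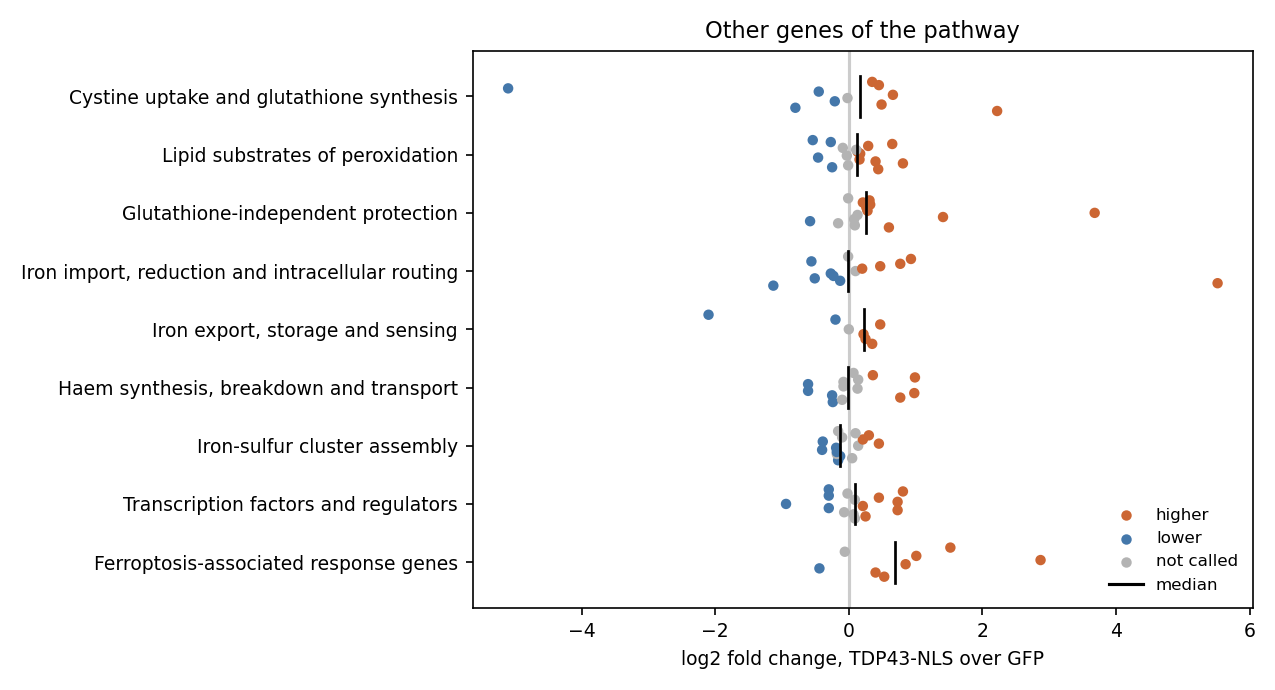
Log2 fold change of TDP43-NLS over GFP of the tested genes in each of 9 pathway lists (orange, higher; blue, lower; grey, not called; black line, median of the list). The response genes have the highest median, 0.69, and most other lists spread on both sides of 0.

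Around Slc7a11 and Gpx4, the cystine and glutathione genes moved both ways, 5 higher and 4 lower of 10 tested, with a median of 0.17. Chac1, which degrades glutathione and is an Atf4 target, rose from 2.75 to 12.9 CPM (log2 fold change 2.22), and Gsr, which regenerates glutathione, from 105 to 167 CPM (0.66). Gclc, the catalytic subunit of the first step of glutathione synthesis, on chromosome 9, fell from 133 to 76.4 CPM (-0.80), whereas its partner subunit Gclm, named after its values were seen, rose from 32.6 to 45.9 CPM (0.49). Mgst1, a microsomal glutathione transferase that also detoxifies lipid peroxides, had 115 reads over the GFP libraries and 3 over those labelled TDP43-NLS. This is a depth-scaled ratio of 38.3 (95% exact binomial interval 12.8 to 189, counting error only). Mgst1 passed the low-count filter only through the GFP libraries, and it is among the lower genes counted for this list. Subunits of 1 enzyme downstream of the cystine exchanger thus went in opposite directions.

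The list labelled glutathione-independent protection had 9 genes higher and 1 lower of 15 tested (median 0.26). That label is the list's and was not checked for each gene. Leaving out 1 library gave 7 to 10 higher. Gch1, which starts the synthesis of the radical-trapping cofactor tetrahydrobiopterin, rose from 17.1 ± 0.728 to 45.4 ± 3.47 CPM (SD of 3 libraries, 1.41 on the log2 scale), and Aifm2, known as FSP1, which regenerates reduced coenzyme Q, rose from 43.4 to 66.0 CPM (0.60). Dhcr7, which consumes the protective sterol 7-dehydrocholesterol, fell from 90.3 to 60.3 CPM (-0.58).

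Lipid genes around Acsl4 had 8 higher and 4 lower of 16 tested (median 0.12). Por, the cytochrome P450 reductase that can start lipid peroxidation, rose from 251 to 394 CPM (0.65 on the log2 scale) and Acsl1, another long-chain acyl-CoA synthetase, from 120.3 to 163 CPM (0.44). Scd2, which makes monounsaturated fatty acids, fell from 1675 to 1155 CPM (-0.54), and Elovl5, an elongase of polyunsaturated fatty acids on chromosome 9, from 183 to 133 CPM (-0.46). Alox5, a lipoxygenase, was not tested, with 6 reads in the GFP libraries, against 32 with TDP43-NLS.

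Iron import and routing genes had 5 higher and 6 lower of 13 tested (median -0.01). Lcn2, lipocalin 2, which binds iron-carrying siderophores, rose from 0.782 ± 0.0651 to 36.1 ± 0.801 CPM (SD, n = 3 each), and its log2 fold change of 5.52 was far larger than that of any of the 10 genes. Trf, transferrin itself, rose from 177 to 338 CPM (0.93), and lies on chromosome 9. Hfe, which binds the transferrin receptor, fell from 26.6 to 12.1 CPM (-1.13), and Steap3, the reductase of endosomal iron, from 88.6 to 60.1 CPM (-0.56).

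Of 7 tested genes of iron export, storage and sensing, 4 rose and 2 fell (median 0.22). Fbxl5, the iron-sensing ligase that removes iron regulatory protein 2, rose from 36.7 to 50.9 CPM (0.47) and Aco1, which doubles as iron regulatory protein 1, from 52.8 to 67.4 CPM (0.35). Ireb2, iron regulatory protein 2, on chromosome 9, fell from 98.3 to 85.8 CPM (-0.20). Prnp, the prion protein, fell from 3.35 to 0.780 CPM (-2.10).

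Haem genes around Hmox1 were split evenly, 4 higher and 4 lower of 14 tested. Each share is 28.6%, near the 29.3% higher and 28.2% lower of all tested genes. Slc48a1, which exports haem from lysosomes, rose from 48.8 to 96.7 CPM (0.99) and Blvrb, a biliverdin reductase, from 34.7 to 68.2 CPM (0.98). Cpox, an enzyme of haem synthesis on chromosome 16, fell by 0.61 on the log2 scale. Iron-sulfur cluster genes had 3 higher and 6 lower of 15 tested (median -0.13), with Hscb (0.45) and Lyrm4 (0.30) higher and Isca1 (-0.39) and Fdx1 (-0.40) lower. Without GFP replicate 2 the lower count of this list was 9.

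Among regulators 6 rose and 4 fell of 15 tested (median 0.09). Sqstm1, the adaptor p62 that draws Keap1 into autophagy, rose from 429 to 750.3 CPM (0.81) and Maff, a small Maf partner of Nrf2, from 13.8 to 23.0 CPM (0.73). Keap1, the inhibitor of Nrf2, fell from 51.8 to 27.1 CPM (-0.94) and lies on chromosome 9, and Trp53, which can repress Slc7a11, fell from 345 to 281 CPM (-0.30). Nfe2l2, which encodes Nrf2 itself and was named after its values were seen, fell from 213 to 173 CPM (-0.30). Atf4, named in the same way, rose from 380.4 to 452 CPM (0.25). Nqo1, of the glutathione-independent list and also named after its values were seen, rose from 0.197 to 2.65 CPM (3.68, standard error 0.32). It had only 10 reads over the GFP libraries, against 133 with TDP43-NLS. Nqo1 thus passed the low-count filter only through the TDP43-NLS libraries, and it is among the higher genes counted for its list. Response genes seen in ferroptotic cells had 6 higher and 1 lower of 8 tested (median 0.69), led by Ptgs2 (7.28 to 53.3 CPM, log2 fold change 2.87), the prostaglandin-forming cyclooxygenase 2, and Trib3 (17.9 to 51.2 CPM, 1.52), an Atf4 target. Chmp6, a membrane repair subunit, fell by 0.44 on the log2 scale. Ptgs2 is also a general inflammatory gene, and Chac1 and Trib3 belong to the integrated stress response.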

How the data were processed

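Per the labels, RNA of BV2 cells was sequenced after poly(A) selection in 3 GFP and 3 TDP43-NLS libraries. The deposited values are raw read counts for each gene, and the FPKM values deposited by the authors are the same counts scaled by depth and gene length (recomputed values differed by a relative 7.28e-14 at most). The tools named in the submitters' processing notes are Bowtie2 2.2.3, HISAT2 2.1.0 and HTSeq 0.6.0, with build GRCm39, roles and strand use not stated.

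Genes passing filterByExpr (10 reads, 15 in total) were tested with edgeR 4.0.16 (R 4.3.3), TMM scaling and the quasi-likelihood test, two-sided, group only, with Benjamini-Hochberg adjustment over all tested genes at 0.05. The script was tested on simulated data. Ratios were tested by exact permutation. DESeq2 1.42.0, limma 3.58.1 on log2(FPKM + 1), other scalings and filters, a replicate block and leaving out each library were alternatives. The genes and lists were chosen with earlier results of these data known. Besides the 10 genes and Tardbp, the 2 called genes per list and direction with the smallest adjusted p were named (1 is not reported here), and the 3 nearest patterns for a gene changed by at least 1 on the log2 scale. Alox5, Gclm, Nfe2l2, Atf4, Nqo1 and Ftl1-ps1 were chosen after their values were seen. The binomial interval covers counting error only.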

Additional observations from a re-analysis of the deposited data

How the results depend on the processing

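Of the 10 genes 8 were called higher and 1 lower under DESeq2, RLE and upper-quartile scaling, no filter, a stricter filter, limma on FPKM and the replicate block. The same settings called 3002 to 4373 of all genes higher and 3085 to 3936 lower, with differing numbers of genes tested. Same-numbered libraries deviated together by correlations of only -0.016 to 0.002, against -0.007 to 0.017 for libraries of different number. No shared deviation was seen, but this cannot tell whether same-numbered libraries shared a culture or batch. With the replicate block 8 genes were higher and 1 lower, and 3848 and 3680 of all genes (3865 and 3724 without it). Leaving out each library gave 8 higher and 1 to 2 lower, and 3512 to 4210 and 3188 to 4041 of all genes. Without GFP replicate 2, Ftl1 was called lower as well. Ftl1 ran from -0.10 to 0.05 and turned positive without GFP replicate 1 (0.05), TDP43-NLS replicate 1 (0.02) or TDP43-NLS replicate 3 (0.01). In the lists, leaving out 1 library moved the iron-sulfur counts to 2 to 4 higher and 4 to 9 lower, the 9 without GFP replicate 2. The higher count of glutathione-independent protection then ran from 7 to 10, and was 7 under limma on FPKM. Without a filter on FPKM, limma called 1 iron-sulfur gene higher.

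Tested against a log2 fold change of 0.5, fewer changes can pass by construction: 4 of the 10 genes were higher and 0 lower, and 1221 and 744 of all genes. The calls of Gpx4 (0.31), Acsl4 (0.35), Tfrc (-0.27), Slc40a1 (0.59) and Hmox1 (0.58) ended. By list, 2 higher and 2 lower remained called for cystine and glutathione, 2 and 0 for lipids, 3 and 0 for glutathione-independent protection, 3 and 1 for iron import, 0 and 1 for iron export, 3 and 0 for haem, 0 and 0 for iron-sulfur clusters, 3 and 1 for regulators and 4 and 0 for response genes. Minus the chromosome's median, Tfrc stood at -0.06, Slc11a1 at 0.73, Slc40a1 at 0.66 and Hmox1 at 0.51. Minus the median of the 20 nearest tested genes, chosen after seeing the data, Slc7a11 stood at 2.41, Gpx4 at 0.16, Tfrc at -0.06, Fth1 at 0.67, Ftl1 at -0.19, Slc11a1 at 0.71 and Slc11a2 at 1.15. With each library left out in turn, all 4 ratios kept their direction, with log2 differences of 0.72 to 0.83 for Fth1 to Ftl1 and 0.23 to 0.31 for Slc11a2 to Slc11a1.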

Other observations

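GFP replicate 2 differed from the other GFP libraries by gene length, in genes of at least 16 CPM. Its median log2 difference from them was -0.23 in 213 genes of up to 1000 bases, -0.16 in 282 genes of 1000 to 1500 bases, and 0.07 in 2178 genes over 7000 bases. Among the TDP43-NLS libraries the corresponding differences in the shortest genes were 0.01, -0.06 and 0.02. Of the 10 genes, Ftl1 (1340 bases) and Gpx4 (1724 bases) were lower by 0.25 and 0.22 on this scale in GFP replicate 2, whereas Hmox1, of similar length (1751 bases), was higher by 0.11. Across these length classes the median log2 fold change between the groups lay between -0.02 and 0.07. The part of fragment size or RNA quality in this was not tested.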
